A study of Mus musculus with 20 samples.

Results

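CA1 pyramidal neurons are the excitatory output cells of the CA1 field of the hippocampus. Here they are 7844 of 160777 nuclei (4.88%) sequenced from the hippocampi of 20 male mice aged 4.5 to 5.5 months. They were selected on measured values: a nucleus was taken when its unique molecular identifiers (UMIs, 1 per captured RNA molecule) for Fibcd1, Gm2115, Galntl6, Stac and Man1a summed to at least 5, with at least 1 from Fibcd1 or Gm2115. A nucleus was refused when it held any UMI of Prox1, Gad1, Gad2, Mog, Pdgfra, Csf1r or Aqp4, or more than 1 UMI of Nectin3 and Tshz2 together. These mark granule cells, inhibitory neurons, glia, CA3 neurons and neurons of subiculum and cortex, and the levels of all of these genes are descriptions of the rule.

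Nuclei came from APP/PS1 mice (APPSwe/PS1ΔE9, called fAD), which carry mutant transgenes behind the mouse prion promoter, and from wild-type (WT) littermates, with 1 library per mouse. The labels place 6 WT and 3 fAD mice in the awake state (WT-Awake, fAD-Awake), 3 WT and 4 fAD mice under isoflurane (WT-GA, fAD-GA; 5% lowered to 1.5%), and 2 WT and 2 fAD mice under ketamine at 150 mg/kg with xylazine at 12 mg/kg (WT-KETA, fAD-KETA). The series' own design text counts otherwise, with 5 WT and 4 fAD mice awake and 4 WT and 3 fAD mice under isoflurane, and the published study counts differently again. The sample labels were used, so genotype and its interaction with isoflurane are compared between labels that these sources do not share. Both kinds of anesthesia lasted 3 h, and each mouse is 1 replicate. The mouse numbers have gaps, running 1 to 4, 10 to 20 and 25 to 29, and these runs are called number sets because the labels name no batch.

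CA1 pyramidal neurons receive Schaffer collateral input from CA3 and project to the subiculum and beyond. Their firing lets calcium in, which turns on immediate-early genes such as Fos, Egr1, Npas4 and Arc through the factors CREB and SRF and through the ERK kinase cascade. Channels of the KCNQ family carry the M-current, which limits how readily these cells fire. Isoflurane strengthens inhibitory receptor currents, ketamine blocks NMDA receptors and xylazine acts on alpha-2 adrenergic receptors.

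Each mouse gave 148 to 736 CA1 nuclei, and the median nucleus held 2016 to 6945 UMIs, depending on the mouse. Summed over a mouse, CA1 nuclei held 538323 to 2527269 UMIs. The 5 marker genes summed to a median of 20 UMIs in a CA1 nucleus, with quartiles of 12 and 32. At the edge of the rule, 211 nuclei had a sum of exactly 5, and 217 nuclei that met the other conditions had a sum of 4. Mpped1, a CA1 gene outside the rule, stood at 97.6 CPM (UMIs scaled to a fixed total per population) in the former and 70.1 in the latter, and Pou3f1 at 39.1 and 24.8, pooled over mice. Wfs1 stood at 10.7 and 8.25 and Spink8 at 28.4 and 19.3, whereas Lefty1 stood at 0 in the former and 8.25 in the latter. Of 157472 distinct barcodes, 3251 were found in more than 1 library, and 3 of them were CA1 nuclei in more than 1.

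The CA1 genes Mpped1, Pou3f1, Wfs1, Spink8 and Lefty1, which the rule did not use, averaged highest in these nuclei among the populations compared here. As CPM, Mpped1 averaged 144 ± 22.7 (SD, n = 20 mice) in CA1 nuclei, 5.12 ± 5.09 in dentate gyrus (DG) granule nuclei and 6.76 ± 4.60 in CA3 nuclei, both gated on their own markers. The POU factor gene Pou3f1 averaged 44.2 ± 18.9 in CA1 and 3.82 ± 2.85 in DG. Nuclei of CA2 and subiculum were not gated for comparison. Nr4a2, listed here also as a gene of subiculum and cortex, averaged 30.7 in CA1, 8.24 in DG and 13.1 in CA3. The other genes of that list outside the rule did not average highest in CA1. Genes that mark parts of CA1 did not all follow. Gpc3, a ventral CA1 gene, averaged 3.91 in CA1 and 23.0 in DG, and Calb1, a superficial one, 34.4 and 90.6. The ventral genes Dcn, Grp and Ccn3 and the deep gene Ndst4 averaged highest in CA1. The dorsal CA1 genes Wfs1, of the endoplasmic reticulum, and Lefty1, a secreted signal, were found in few nuclei, Wfs1 in 6.64% and Lefty1 in 2.83%. Among excitatory neuron genes, Camk2a was in 93.2% of CA1 nuclei, the vesicular glutamate transporter gene Slc17a7 in 49.2%, Nrgn in 38.1% and Neurod6 in 15.8%. These did not set CA1 apart. Slc17a7 and Neurod6 averaged 215 and 47.2 CPM in CA1 and 257 and 64.7 in CA3. Camk2a and Nrgn averaged 1107 and 152 in CA1 and 1155 and 179 in DG.

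**Figure D1:**
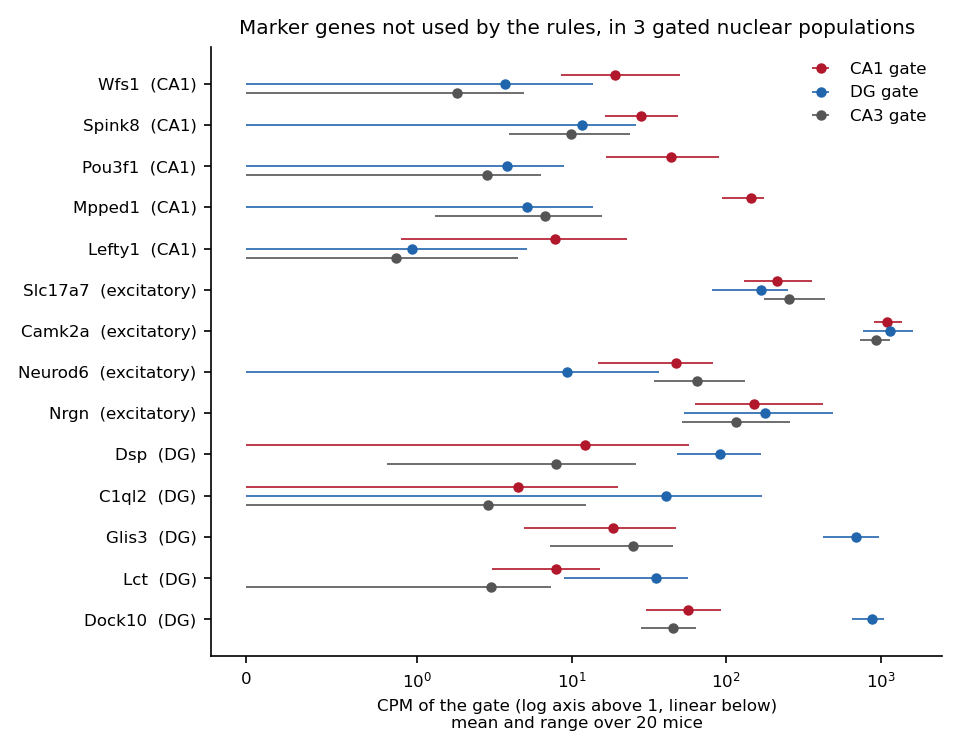
Mean and range over 20 mice of marker genes, in CPM of the nuclei gated as CA1, DG and CA3, on an axis that is logarithmic above 1. Mpped1 averages 144 ± 22.7 (SD) in CA1 and under 10 in both other populations, whereas the granule cell genes Glis3 and Dock10 average 18.6 ± 11.0 and 56.6 ± 15.5 in CA1 beside 694 ± 133 and 882 ± 114 in DG.

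Outside the rule, genes with the highest ratios of CA1 over the higher of DG and CA3 included Gm2164, Gm30382, Mpped1, Adgrl2, Ndst3, Pde11a, Ptpru, Tenm3, Kcnh7, Hs6st2 and Ntm. Each stood above both populations in 20 of 20 mice. Gm2164 averaged 558 CPM in CA1, 14.4 in DG and 12.8 in CA3. Tenm3, a teneurin that guides the wiring of CA1 to the subiculum, averaged 925, 119.7 and 95.04. Kcnh7, an ERG-type potassium channel gene, averaged 2069, 289 and 77.5. Ndst3 and Hs6st2, which encode enzymes that modify heparan sulfate, averaged 403 and 97.3 in CA1. Of 3447 genes at 50 or more CPM in CA1, 108 were at least 2 times the higher of DG and CA3. The populations were chosen by their genes, so these levels carry no test.

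The 10 genes with the largest share of CA1 UMIs, with no adjustment for gene length, were Malat1, Kcnip4, Lsamp, Meg3, Rbfox1, Celf2, Dlg2, Snhg11, Cntnap2 and Epha6. Malat1, a nuclear noncoding RNA, took 63420.0 ± 14339 CPM (SD, n = 20) and Kcnip4, an auxiliary subunit gene of A-type potassium channels, 11493 ± 1592. The other 8 lay between 5599 and 10711.

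Within CA1, 271 nuclei (3.45%) held at least 2 UMIs of the ventral CA1 genes Dcn, Grp, Ccn3 and Gpc3, and 6649 held none. The adrenergic receptor gene Adra1a stood at 78.2 CPM in the former and 12.7 in the latter, pooled over mice as are the values that follow, and was higher in the former in 16 of 20 mice. Pcdh15, a protocadherin gene, stood at 543 and 96.5, and Dpp10, a partner of A-type potassium channels, at 1020.3 and 237. In the other direction, the serotonin receptor gene Htr1f stood at 61.9 against 171 and was lower in the nuclei with ventral UMIs in 20 of 20 mice. The collagen gene Col11a1 stood at 10.8 against 66.1. The nuclei with ventral UMIs were deeper, at 6137 UMIs on average against 3604, and were chosen by counts, so these ratios carry no test. Mice 1 to 4 gave 39, 21, 19 and 33 of the 271, so the pooled values also differ in the mice behind them, whereas the counts of mice compare nuclei of the same mouse.

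Mice 1 to 4 stood apart before any comparison. Mitochondrial transcripts took 0.386% to 1.14% of CA1 UMIs in them and 0.00999% to 0.149% in the other 16 mice. The share of CA1 nuclei with ventral UMIs was 6.03% to 10.8% in mice 1 to 4 and 0.753% to 4.87% in the others. That share needs 2 raw UMIs, and CA1 nuclei were deeper in mice 1 to 4, with per-mouse medians averaging 4640 UMIs against 3310. The dorsal markers Wfs1, Lefty1 and Spink8 also ran higher there, summing to 62.2 to 111 CPM against 34.3 to 65.0. Results are therefore given from a model that includes the number set, with values without these 4 mice beside them.

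The share of nuclei that were CA1 averaged 5.17% ± 1.18 (SD, n = 7) under isoflurane and 5.12% ± 0.989 (n = 9) in awake mice. The difference of 0.0517 percentage points was smaller than the spread between mice (two-sided exact permutation test, p = 0.916). In ketamine mice the share ran from 2.62% to 4.17%, and in mouse 29, the 1 awake mouse of their number set, it was 4.27%.

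Isoflurane against awake addresses how 3 h of this anesthetic changes the transcripts of CA1 neurons. UMIs were summed per mouse over its CA1 nuclei and tested with edgeR, with genotype and number set in the model. A gene is called when its adjusted p (Benjamini-Hochberg over the 13389 genes tested) is under 0.05, and CPM from here on are after scaling for library composition. Under isoflurane 406 genes were lower (3.03% of those tested) and 478 were higher (3.57%), 884 in all (6.6%). Without mice 1 to 4 the count was 133, and without the number set in the model it was 460. The awake and isoflurane mice did not overlap in 129 genes (0.963%), and 123 of these were called.

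Genes that fell and genes that rose differed in level and in the share of noncoding genes. Those that fell had a median awake level of 87.3 CPM and 97.3% were protein-coding. Those that rose had a median of 8.24 CPM and 34.5% were noncoding, beside 19.4 CPM and 13.6% over all genes tested. The difference reached 2-fold in 35 genes that fell and in 258 that rose. At low levels only large differences are called, and the awake level itself enters the direction. The part of this in these values was not tested.

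**Figure D2:**
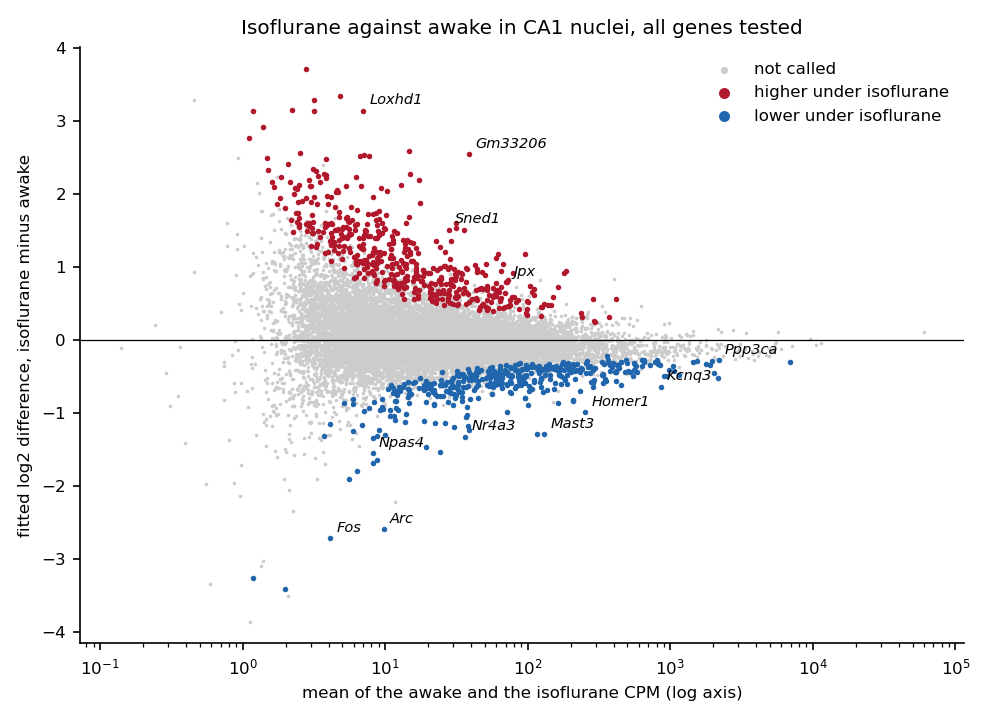
Each point is a gene tested in CA1 nuclei, with its level in CPM on a log axis against the fitted log2 difference, isoflurane minus awake. The 406 genes called lower include highly expressed ones, whereas many of the 478 called higher lie at low levels, and Arc lies at -2.59.

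Activity-regulated genes fell under isoflurane. Of 22 listed, 19 could be tested, 11 fell (3.03% over all genes) and 0 rose, and their median difference was -0.81 on the log2 scale beside -0.001 over all genes. The calls were 9 of 11 transcription factors and 2 of 8 effectors. Of the 11 calls 9 held without mice 1 to 4, with Egr3 and Fosl2 lost, and 8 without the number set, with Egr3, Fosl2 and Junb lost there and without mice 11, 14 and 17. With 5 number sets and with DESeq2 Egr3 was lost. Of fits that left out 1 mouse, Egr3 was lost in 11, Junb in 6, Fosl2 without mouse 3 or 17 and Fos without mouse 10. With 148 nuclei drawn from each mouse 4 of the 11 were still called, Egr4, Fos, Junb, Npas4 and Nr4a2 were not, and 2 had no value.

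Arc, on chromosome 15 at 74669083 to 74672570 (GRCm38), encodes a synaptic protein that helps remove AMPA receptors from synapses. Awake mice ran from 10.2 to 32.1 CPM with a median of 14.7, and isoflurane mice from 1.64 to 4.18 with a median of 2.68. No isoflurane mouse reached the lowest awake mouse. The fitted difference was -2.59 ± 0.259 (log2, SE; edgeR adjusted p = 3.22e-06), and without mice 1 to 4 it was -2.28 (edgeR adjusted p = 0.00238).

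Npas4, on chromosome 19 at 4984355 to 4990316, encodes a factor that neurons induce on calcium entry and that shapes inhibitory synapses. Awake mice ran from 7.68 to 21.7 CPM (median 12.6) and isoflurane mice from 1.39 to 5.74 (median 3.28). The groups did not overlap, and the difference was -1.55 ± 0.266 (log2, SE; edgeR adjusted p = 0.00127). Homer1, on chromosome 13 at 93299635 to 93405129, encodes a postsynaptic scaffold whose short form is induced by activity. It ran from 200.4 to 463 CPM (median 339) in awake mice and from 104 to 213 (median 197) under isoflurane, at -0.99 ± 0.0999 (log2, SE; edgeR adjusted p = 3.22e-06). The groups overlapped through awake mouse 29, at 200.4 CPM, and counts per gene do not separate the short form from the long ones.

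Other members were also lower. Egr1, a zinc finger factor, averaged 13.6 ± 4.04 CPM (SD, n = 9) in awake and 4.06 ± 2.58 (n = 7) in isoflurane mice, and the nuclear receptor gene Nr4a3 51.4 ± 25.8 and 21.02 ± 9.61. Fos was sparse, at 7.19 ± 5.01 and 1.01 ± 0.893 CPM, and fell by 2.72 on the log2 scale (edgeR adjusted p = 0.0211). Egr4 fell by 1.69, Fosl2 by 1.17, Junb by 0.86, Egr3 by 0.81 and Nr4a2 by 0.78. Isoflurane mouse 3 had 36.1 CPM of Junb, above the highest awake mouse at 32.4. It had 16.9 CPM of Egr4, and of the awake mice only mouse 17, at 18.4, was higher. Within mice 1 to 4 the log2 ratio of means, isoflurane over awake, was -0.0049 for Nr4a2, -0.21 for Junb and -0.54 for Egr4. Within mice 10 to 20 it was -1.12, -1.15 and -2.31. For Egr3 and Fosl2 it was -1.23 and -1.81 in the former and -0.65 and -1.07 in the latter. Members that passed no test included Nr4a1 at -0.51 and the synaptic organizer gene Nptx2 at -0.65, with adjusted p of 0.262 and 0.130 in edgeR.

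The promoters of several of these genes hold the core of the cAMP response element, which CREB binds. They are shown because they hold the core and their genes fell, each from 250 bases before to 50 bases after the transcript start given by RefSeq (GRCm38.p6), 5′ to 3′ on the gene's strand. Each TGACGT or its reverse complement ACGTCA is in capitals. The windows are chr19:4989922-4990221 (minus strand) for Npas4, chr13:93303507-93303806 (plus) for Homer1, chr4:48045055-48045354 (plus) for Nr4a3 and chr12:85473640-85473939 (plus) for Fos.
Npas4: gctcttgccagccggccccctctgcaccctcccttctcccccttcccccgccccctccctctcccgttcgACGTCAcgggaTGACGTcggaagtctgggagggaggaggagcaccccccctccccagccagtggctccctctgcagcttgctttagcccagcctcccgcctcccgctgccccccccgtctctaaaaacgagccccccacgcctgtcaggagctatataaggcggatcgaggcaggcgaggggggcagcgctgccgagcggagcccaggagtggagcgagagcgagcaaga
Homer1: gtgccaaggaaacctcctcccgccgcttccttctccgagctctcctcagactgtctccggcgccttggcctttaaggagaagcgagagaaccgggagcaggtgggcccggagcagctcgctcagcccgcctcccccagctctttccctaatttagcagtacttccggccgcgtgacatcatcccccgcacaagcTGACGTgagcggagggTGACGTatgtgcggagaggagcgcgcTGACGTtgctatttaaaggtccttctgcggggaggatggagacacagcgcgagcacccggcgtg
Nr4a3: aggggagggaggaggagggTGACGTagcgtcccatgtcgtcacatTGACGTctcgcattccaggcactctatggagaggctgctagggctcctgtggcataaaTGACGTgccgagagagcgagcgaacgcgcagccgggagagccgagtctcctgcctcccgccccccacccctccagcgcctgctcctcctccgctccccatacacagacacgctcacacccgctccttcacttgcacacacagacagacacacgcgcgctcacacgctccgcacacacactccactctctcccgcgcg
Fos: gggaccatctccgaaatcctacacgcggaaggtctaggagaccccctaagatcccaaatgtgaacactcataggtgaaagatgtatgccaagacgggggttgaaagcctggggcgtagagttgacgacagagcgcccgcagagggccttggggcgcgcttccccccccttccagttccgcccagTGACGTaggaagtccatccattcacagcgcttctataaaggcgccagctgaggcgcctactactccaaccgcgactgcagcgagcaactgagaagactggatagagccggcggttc

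Counted from the transcript start, the core begins at -180 and -169 in Npas4, at -56, -40 and -14 in Homer1, at -231, -205 and -147 in Nr4a3 and at -66 in Fos. The window of the other RefSeq start of Homer1 had 0. Of the other activity-regulated genes that fell, Egr4 held the core as spelled here, and Junb, Nr4a2 and Fosl2 did not. Of those not called, Scg2, Pcsk1 and 1 promoter of Bdnf held it too, and Jun, Inhba and Nr4a1 did not. The shorter TGACG was not counted, and the windows of Junb and Nr4a2 hold it, so they do not lack every form of the element. Of the activity-regulated genes tested 14 had promoters in the table, and 8 of their 21 promoters (38.1%) held the core on either strand. It was in 11.4% of the 12925 promoters of all genes tested, in 8.09% of the 470 promoters of genes that fell and in 9.07% of the 419 promoters of genes that rose. Both letter strings overlap in the full palindromic element, which then counts as 2 matches in 1 promoter. A match describes the letters only.

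**Figure D3:**
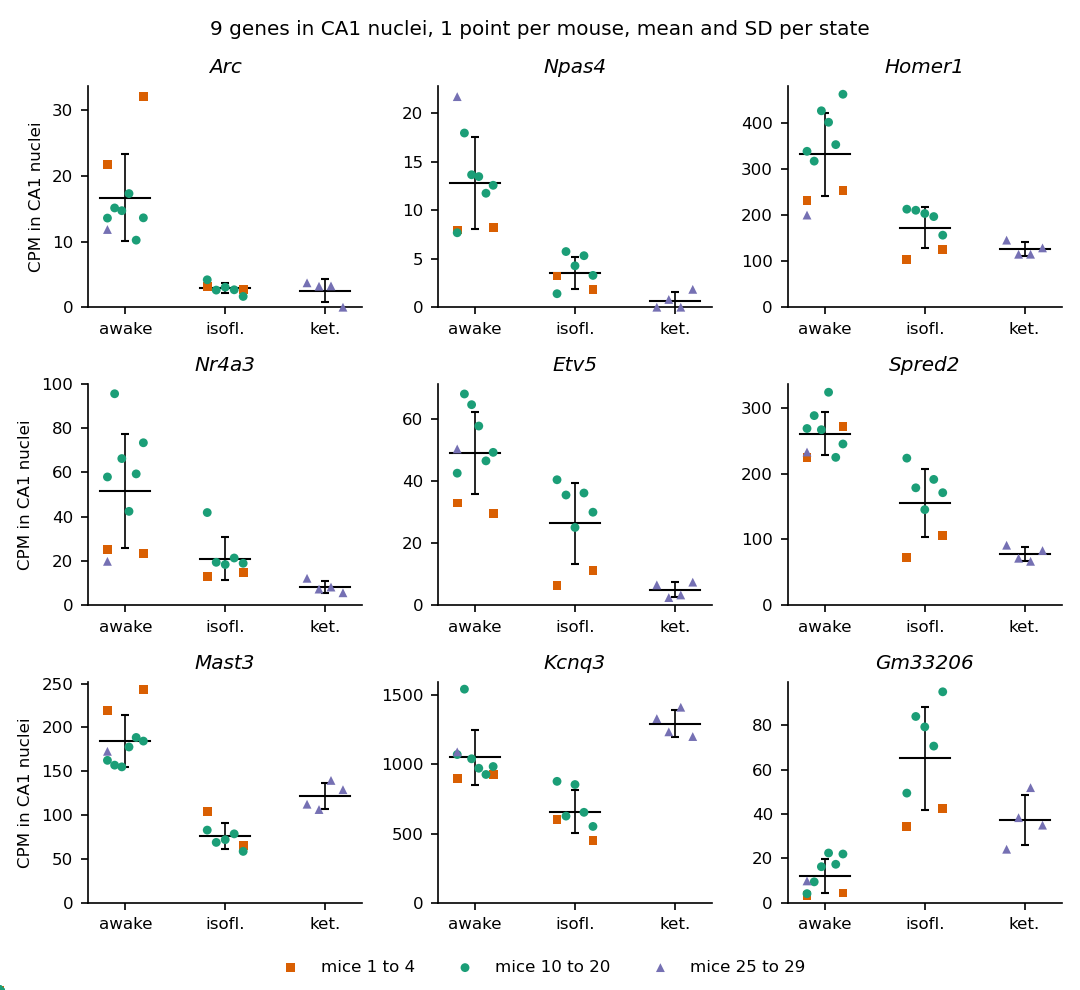
CPM in CA1 nuclei of 9 genes, with 1 point per mouse, the mean and SD of each state, and the number set as the marker shape. Arc runs from 10.2 to 32.1 in awake and from 1.64 to 4.18 in isoflurane mice, and Etv5 from 29.6 to 68.1 in awake and from 2.40 to 7.37 in ketamine mice.

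Genes that ERK signalling induces, called ERK feedback genes here, were lower as well. The list joins 6 inhibitor and 3 phosphatase genes, which restrain that signalling, with 3 transcription factor genes, Etv5 among them. Of 12 listed 9 could be tested, 5 fell (3.03% over all genes) and 0 rose, with a median of -0.59 (log2). Spred2, which encodes an inhibitor of Raf activation, ran from 225 to 324 CPM in awake mice (median 267) and from 72.3 to 224 under isoflurane (median 171). The highest isoflurane mouse lay just below the lowest awake mouse, and the difference was -0.83 ± 0.137 (log2, SE; edgeR adjusted p = 0.000868). The nuclear ERK phosphatase gene Dusp5 averaged 8.73 ± 2.42 and 2.43 ± 1.56 CPM, and the ETS factor gene Etv5 49.1 ± 13.1 and 26.4 ± 13.0. Spry2 and Spred1, which encode further inhibitors, fell by 0.59 and 0.41 on the log2 scale, with adjusted p of 0.0463 and 0.0496 in edgeR. Without mice 1 to 4 only Spred2 of these 5 was called, and without the number set Spred2 and Dusp5 were. With equal nuclei Spred1 and Spry2 were lost and Dusp5 had no value. Both were also lost without marked doublets, and when 1 mouse was left out Spred1 was in 14 fits and Spry2 in 13.

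The smallest adjusted p belonged to Mast3, a gene for a microtubule-associated kinase of neurons, on chromosome 8 at 70778117 to 70805054. Awake mice ran from 155 to 243 CPM (median 178) and isoflurane mice from 58.7 to 104 (median 72.0). The groups lay apart, at -1.29 ± 0.106 (log2, SE; edgeR adjusted p = 3.09e-07). Within mice 1 to 4 the means were 231 and 84.8 CPM, and within mice 10 to 20 they were 171 and 72.2.

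The 10 falls with the lowest adjusted p, among genes called both with and without the number set, included Arc, Homer1 and Mast3. Some larger falls, such as those of Fos and Egr4, were outside these 10. P4ha1, a collagen prolyl hydroxylase subunit gene, averaged 162 ± 30.8 CPM in awake and 69.6 ± 21.02 in isoflurane mice, and the glycosyltransferase gene Galnt9 211 ± 40.9 and 115 ± 10.2. Wwc1, which encodes the memory-linked protein KIBRA, averaged 129 ± 17.3 and 70.5 ± 16.8. The phosphoinositide phosphatase gene Synj2 fell by 1.18, the xylosyltransferase gene Xylt1 by 0.82 and the noncoding RNA Gm41414 by 1.23 on the log2 scale. Bhlhe40, a repressor of the clock, ran from 16.8 to 38.4 CPM in awake and from 5.33 to 13.6 in isoflurane mice without overlap. All 10 were called in each of the 20 fits that left out 1 mouse and without mice 1 to 4.

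Genes of M-current channels were lower. Kcnq3 and Kcnq5 were among the 5 that fell of 30 potassium and HCN channel genes tested (16.7%, beside 3.03% lower over all genes, median -0.16 log2). Kcnq3, on chromosome 15 at 65986387 to 66286642, ran from 898 to 1544 CPM in awake mice (median 985) and from 451 to 878 under isoflurane (median 627). The groups did not overlap, and the difference was -0.64 ± 0.114 (log2, SE; edgeR adjusted p = 0.00168). Kcnq5 averaged 1101 ± 131 and 843 ± 157 CPM, and Kcnk2, whose leak channel volatile anesthetics open, 72.7 ± 10.5 and 55.2 ± 8.39. Without mice 1 to 4 only Kcnq3 of the 5 was called (edgeR adjusted p = 0.0494), and without the number set 3 were, Kcnq3 and Kcnq5 among them. Kcnk2 was lost with 5 number sets, and Kcnk2 and Kcnq5 with equal nuclei. With 1 mouse left out Kcnk2 was lost in 14 fits and Kcnq5 without mouse 3 or 16.

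Transmitter receptor genes gave 1 call, and the shares of the receptor and channel lists here were near the 3.03% lower over all genes. Of 20 glutamate receptor genes 1 was called (5%). Grm8, a presynaptic metabotropic receptor gene, fell, from 99.2 ± 35.9 to 54.4 ± 18.2 CPM, and Grin1, the obligate NMDA receptor subunit gene, stood at 0.30 (log2, edgeR adjusted p = 0.0944). Of 14 GABA receptor genes 0 were called, with a median of -0.03, Gabbr2 at -0.31 and Gabrd at 0.66 (adjusted p = 0.0794 and 0.0802 in edgeR). Of 22 sodium and calcium channel genes 1 fell (4.55%), the auxiliary subunit gene Cacna2d1, by 0.30. Neither Grm8 nor Cacna2d1 was called without mice 1 to 4 or with equal nuclei, nor was Cacna2d1 without the number set. Leaving out 1 mouse lost Cacna2d1 in 8 fits and Grm8 in 5, those without mouse 1, 3, 4, 10 or 18.

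Among synaptic genes the falls were small. Of 30 adhesion and scaffold genes 4 fell and 0 rose (13.3%, beside 3.03% lower over all genes, median -0.16 log2). Ephb2, a receptor kinase gene whose product binds NMDA receptors, ran from 55.2 to 78.9 CPM in awake mice and from 32.1 to 47.4 under isoflurane. These ranges did not overlap (-0.63 ± 0.124, log2, SE; edgeR adjusted p = 0.00391). Homer2 averaged 168 ± 20.1 and 118 ± 23.6 CPM, Dlg4, which encodes PSD-95, 126 ± 16.7 and 99.7 ± 6.91, and Shank1 228 ± 31.4 and 182 ± 18.4. Of 18 transmitter release genes 2 were called (11.1%, beside 6.6% in either direction over all genes). The synapsin gene Syn2 fell by 0.36 and the synapsin gene Syn3 rose by 0.48. Of these 6 genes only Syn3 was called without mice 1 to 4, and only Homer2 with equal nuclei. Syn3 and Shank1 were lost without the number set and without mice 11, 14 and 17. Leaving out 1 mouse lost Shank1 without mouse 2, 3, 4 or 18 and Syn2 without mouse 10 or 18.

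Second messenger genes moved in both directions. Of 28 cAMP genes 4 fell and 1 rose (17.9% called, beside 6.6% over all genes). The phosphodiesterase genes Pde4b (342 ± 59.8 and 233 ± 65.4 CPM in awake and isoflurane mice) and Pde4a (131 ± 15.1 and 102 ± 6.02) fell. So did the CREB coactivator gene Crtc3, by 0.51, and the cyclase gene Adcy2, by 0.27. Pde8a, a high-affinity phosphodiesterase gene, rose from 6.74 ± 2.65 to 15.3 ± 5.33 CPM. Of 14 calcium kinase and phosphatase genes 2 fell (14.3%, beside 3.03% lower over all genes), the nuclear kinase gene Camk4 by 0.69 and the calcineurin gene Ppp3ca by 0.27. None of these 7 was called without mice 1 to 4. Adcy2 was lost with 5 number sets, Adcy2 and Ppp3ca without the number set, Ppp3ca without the genotype term, and Adcy2, Crtc3, Pde4a and Pde8a with equal nuclei. Leaving out 1 mouse lost Adcy2 in 8 fits and Ppp3ca in 7.

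Clock and stress genes gave few calls. Of 18 clock genes 2 fell (11.1%, beside 3.03% lower over all genes), Bhlhe40 and the repressor gene Per2, Per2 from 40.4 ± 11.7 to 19.9 ± 9.38 CPM. Of 25 heat shock and endoplasmic reticulum stress genes 1 fell (4%, near that share), the chaperone partner gene Dnajb5, by 1.24. Of 15 glucocorticoid and metabolic stress genes 3 fell (20%), the receptor genes Nr3c2 by 0.50 and Nr3c1 by 0.39 and their target Sgk1 by 0.35. Of these 6 genes only Bhlhe40 was called without mice 1 to 4. Dnajb5 and Nr3c1 were lost with 5 number sets, and both and Sgk1 with equal nuclei. Nr3c1 and Nr3c2 were lost without the number set, Nr3c1 without marked doublets and Sgk1 without mice 11, 14 and 17. Leaving out 1 mouse lost Dnajb5 in 9 fits, Nr3c1 in 8 and Sgk1 without mouse 2, 3 or 16. Of 9 amyloid and tau genes 0 were called.

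**Figure D4:**
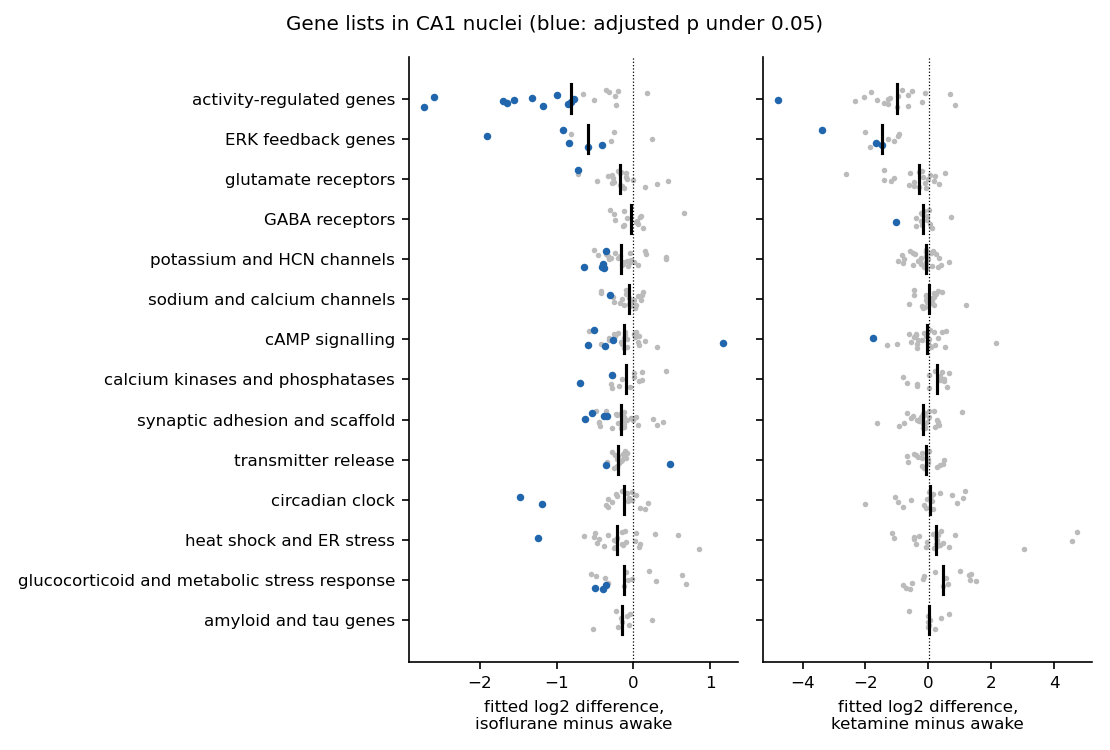
Fitted log2 difference of the tested members of 14 gene lists in CA1 nuclei, isoflurane minus awake and ketamine minus awake, with called genes in blue, a black tick at each list's median and a dotted line at the median of all genes tested. Under isoflurane the medians are -0.81 for activity-regulated and -0.59 for ERK feedback genes.

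Of the 10 rises with the lowest adjusted p, chosen in the same way, 6 carried only clone or model names. Gm33206, a long intergenic RNA on chromosome 3 at 29773466 to 29893177, ran from 3.18 to 22.5 CPM in awake mice (median 9.87) and from 34.5 to 95.2 under isoflurane (median 70.7). The groups did not overlap, at 2.55 ± 0.251 (log2, SE; edgeR adjusted p = 3.22e-06). Gm9866 averaged 37.9 ± 6.63 and 85.3 ± 11.9 CPM. Jpx, a noncoding activator of Xist, averaged 52.7 ± 4.37 and 89.6 ± 9.64, and A330008L17Rik 129 ± 33.2 and 242 ± 53.4. Gm30093, A830031A19Rik and 9530062K07Rik rose by 2.60, 1.13 and 0.97 on the log2 scale.

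The other 3 were named protein-coding genes. Sned1, an extracellular matrix gene, averaged 14.7 ± 5.22 and 41.1 ± 6.06 CPM in awake and isoflurane mice, and the fucosyltransferase gene Fut2 2.73 ± 1.80 and 12.6 ± 4.24. Loxhd1, known from hair cells of the ear, averaged 1.39 ± 0.831 and 12.6 ± 9.91. All 10 rises were also called in each of the 20 fits that left out 1 mouse and without mice 1 to 4.

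The CA1 marker gene Mpped1, outside the rule, was called lower (165 ± 19.5 and 125 ± 24.9 CPM in awake and isoflurane mice), and was not called without mice 1 to 4, without the number set or with equal nuclei. Before the scaling for library composition, the 6 CA1 markers outside the rule summed to 374 to 425 CPM in awake and 292 to 389 in isoflurane mice. The astrocyte gene Aldh1l1 was called higher (1.86 ± 1.02 and 5.16 ± 1.52 CPM; edgeR adjusted p = 0.0296). It had no value without mice 1 to 4, without the number set, without mouse 29, without marked doublets or with equal nuclei per mouse. It was not called without mice 11, 14 and 17 (edgeR adjusted p = 0.0743) or in 9 of the other 19 fits that left out 1 mouse. In CPM before the scaling for library composition, the 4 astrocyte markers summed to 17.0 to 65.3 in awake and 21.4 to 51.3 in isoflurane mice, with Aqp4 at 0 by the rule. Oligodendrocyte markers summed to 159.9 to 438 and 174 to 334, microglial markers to 55.1 to 142 and 70.4 to 184 and interneuron markers to 34.8 to 237 and 29.3 to 165. The part of such RNA in the results above was not tested.

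Whether the isoflurane difference in CA1 departed from that in other hippocampal neurons was tested against 3446 DG and 4729 CA3 nuclei, in 1 edgeR model with the mouse as a block. Of 11902 genes tested, 129 (1.08%) differed from DG, 48 with a higher and 81 with a lower response in CA1. From CA3 35 genes (0.294%) differed, 14 higher and 21 lower. Without mice 1 to 4 these counts were 45 and 4. Levels in the next paragraphs are CPM on the scaling of this joint model.

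Mast3 and Kcnq3 responded lower in CA1 than in DG. Mast3 averaged 187 ± 28.4 in awake and 77.1 ± 15.3 in isoflurane mice in CA1, 181 ± 36.1 and 135 ± 27.4 in DG, and 197 ± 31.5 and 95.2 ± 12.6 in CA3. The CA1 response minus that of DG was -0.86 ± 0.135 (log2, SE; edgeR adjusted p = 3.79e-05), and minus that of CA3 it was -0.28 ± 0.119 (edgeR adjusted p = 0.516). Kcnq3 averaged 1069.7 ± 208 and 671 ± 159 in CA1 and 848 ± 184 and 753 ± 200.4 in DG, a difference of -0.52 ± 0.0948 (log2, SE; edgeR adjusted p = 0.000613). In CA3 Kcnq3 averaged 821 ± 137 and 620 ± 171, and its CA1 response minus that of CA3 was -0.24 (log2, edgeR adjusted p = 0.388). Bhlhe40, a gene singled out after its values were seen, gave -1.39 ± 0.322 against DG (edgeR adjusted p = 0.0150) and -0.23 against CA3 (edgeR adjusted p = 0.948).

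Inf2, an actin-nucleating formin gene, averaged 36.2 ± 14.0 and 16.9 ± 3.15 in CA1 in awake and isoflurane mice and 53.7 ± 20.7 and 64.4 ± 12.8 in DG, a response difference of -1.40 ± 0.199 (log2, SE; edgeR adjusted p = 6.50e-06). In CA3 Inf2 averaged 46.4 ± 17.4 and 19.5 ± 5.91, and its CA1 response minus that of CA3 was 0.03 (log2, edgeR adjusted p = 0.987). Rhbdl3 and Gm16599 gave -1.24 and -0.997 against DG. Against CA3 they gave -0.07 and -0.28 (edgeR adjusted p = 0.979 and 0.673).

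The cation channel gene Trpc6 had the higher response in CA1, averaging 47.8 ± 18.4 in awake and 74.6 ± 26.2 in isoflurane mice there and 337 ± 45.8 and 143 ± 35.7 in DG (2.01 ± 0.189, log2, SE; edgeR adjusted p = 1.77e-11). Gm32014 overlaps Trpc6 on the opposite strand, so its value of 1.69 is uncertain. The ephrin receptor gene Epha5, the GABA-B auxiliary subunit gene Kctd16 and the cAMP-regulated phosphoprotein gene Arpp21 gave 0.68, 0.65 and 0.74, and Gm21798 1.72. In that order their log2 ratios of means, isoflurane over awake, were -0.20, -0.12, -0.34 and 0.009 in CA1. In DG they were -0.85, -0.74, -0.99 and -1.49, so these genes did not rise in CA1 but were lower in DG. These genes against DG, Bhlhe40 aside, numbered 11 and were also called without mice 1 to 4, and Rhbdl3 was not without mouse 18.

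Against CA3, Nr4a3 was the 1 activity-regulated gene called, of 18 tested (0.294% over all genes), and against DG 0 of 18 were (1.08% over all genes). It averaged 52.4 ± 26.6 in awake and 21.4 ± 9.97 in isoflurane mice in CA1 and 66.2 ± 13.0 and 55.5 ± 10.0 in CA3, a response difference of -1.06 ± 0.184 (log2, SE; edgeR adjusted p = 0.000828). Arc averaged 8.49 ± 4.23 and 2.12 ± 1.46 in CA3 and 2.52 ± 2.79 and 1.74 ± 1.79 in DG. Its CA1 response minus that of CA3 was -0.33 ± 0.515, and minus that of DG -1.10 ± 0.911, which was not detectable as a difference at this depth.

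Hecw2, Cttnbp2, Cap2, Mrtfb and Cacng3 responded lower in CA1 than in CA3, at -0.58, -0.43, -0.44, -0.49 and -0.69 on the log2 scale. Cap2, an actin regulator gene, averaged 388 ± 31.1 and 282 ± 24.6 in CA1 and 303 ± 43.1 and 291 ± 27.2 in CA3. Ptprz1, Ttn, Ppp2r3a, Gli3, Dync1li2 and Sox2ot responded higher in CA1, at 1.32, 1.38, 0.55, 1.60, 0.54 and 1.22. For Sox2ot the log2 ratio of means, isoflurane over awake, was 0.07 in CA1 and -0.92 in CA3. For the others it was 0.45 to 1.53 in CA1. Ptprz1, Gli3 and Sox2ot are also genes of glia, whose part was not tested. Of these 12 genes Nr4a3, Hecw2, Ptprz1 and Ttn were called without mice 1 to 4. Among fits with 1 mouse fewer, Dync1li2 was lost without mouse 2, 10 or 16, Gli3 without mouse 2, 4, 15 or 16 and Sox2ot without mouse 2, 4, 11 or 18, and Sox2ot also without marked doublets.

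**Figure D5:**
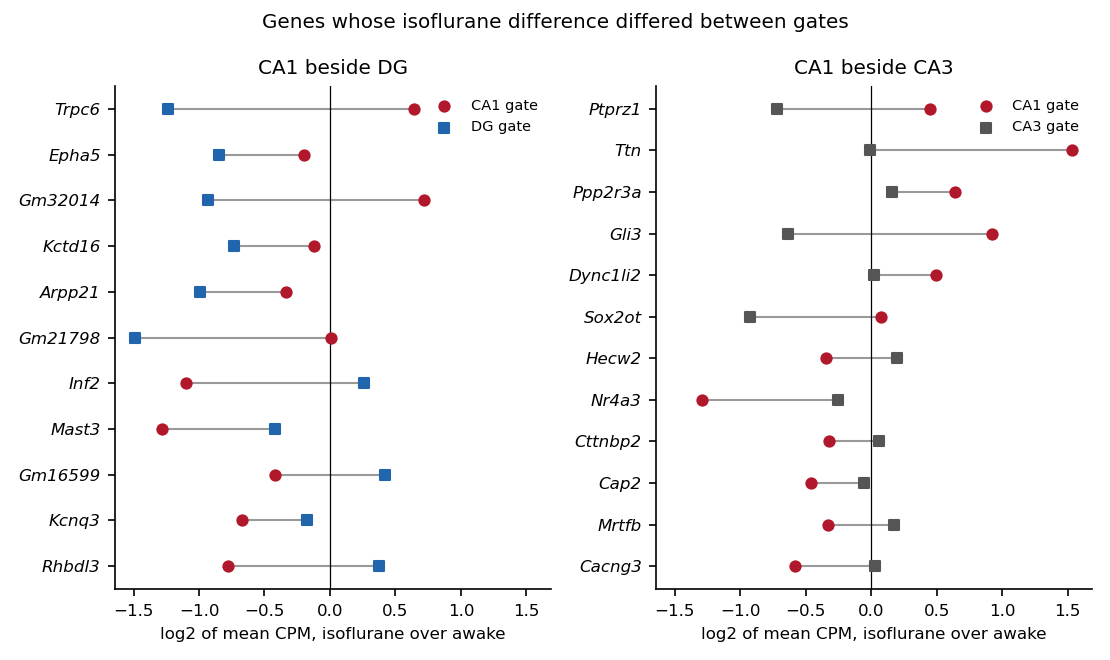
For 11 genes named against DG and 12 named against CA3, the log2 ratio of the mean CPM in isoflurane over awake mice, in CA1 nuclei beside the other population. The response of Mast3 is lower in CA1 than in DG (difference -0.86), that of Trpc6 is higher (2.01), and that of Nr4a3 is lower than in CA3 (-1.06).

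Ketamine with xylazine against awake asks the same of the other anesthetic. The number set of the 4 ketamine mice holds 1 awake mouse, mouse 29, so this contrast rests on it once the number set is in the model. The SE and p then take the spread from all 20 mice and assume that mouse 29 varies like the others. Then 14 genes were lower (0.105% of 13389 tested) and 1 was higher. These 15 calls became 3 without mouse 27, 7 without mouse 26, 8 with equal nuclei, 31 with 5 number sets, 34 with DESeq2 and 115 without the count filter. Of the 9 genes named for ketamine in the next paragraphs, Npas4 and Etv5 were still called without mouse 27. Without mouse 26 those and Lin7a and Osbpl8 were. Without the number set 449 were lower (3.82% of 11767 tested) and 462 higher, and there the anesthetic and the number set cannot be told apart. Both anesthetics were set against the same awake mice, so their values stand side by side only. The share of all genes in which ketamine and awake mice do not overlap was not computed. Ranges that lie apart in the next paragraphs therefore describe single genes only.

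Npas4 and ERK feedback genes were called lower. Npas4 read 0, 0.800, 0 and 1.84 CPM in mice 25 to 28, 21.7 in mouse 29 and 7.68 to 21.7 in all awake mice. No ketamine mouse reached an awake mouse, and the fitted difference, which 2 libraries at 0 make dependent on the prior count, was -4.77 ± 0.719 (log2, SE; edgeR adjusted p = 0.00693). Etv5 read 6.50, 2.40, 3.25 and 7.37 CPM, 50.4 in mouse 29 and 29.6 to 68.1 in all awake mice. These did not overlap either (-3.38 ± 0.480, log2, SE; edgeR adjusted p = 0.00548). Spred2 read 91.1, 71.2, 66.5 and 83.0 CPM, 233 in mouse 29 and 225 to 324 in all awake mice, a fall of 1.66 on the log2 scale, and Spred1 fell by 1.47. Npas4 was not called with DESeq2 or with equal nuclei.

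Of 9 ERK feedback genes 3 were called lower under ketamine (0.105% over all genes), with a median of -1.47, and 7 without the number set (3.82% over all genes). Of 19 activity-regulated genes Npas4 was the 1 called, with a median of -0.98, and 10 were without the number set, beside the same shares over all genes. Over all genes the median was 0.01. Arc read 0 to 3.72 CPM in ketamine mice and Homer1 115 to 146. Fos read 27.9, 5.60, 0 and 1.84 CPM in mice 25 to 28, a range that spans the awake mice.

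The other named falls were Lin7a, Cdh10 and Osbpl8. Lin7a, a synaptic scaffold gene, read 38.1 to 57.1 CPM in ketamine and 75.4 to 161 in awake mice (-2.004 ± 0.335, log2, SE; edgeR adjusted p = 0.0127). Cdh10, a cadherin gene, read 208 to 276 and 327 to 623. Osbpl8, a lipid transfer protein gene, read 43.8 to 74.4 and 103 to 174. Cdh10 was not called with equal nuclei, nor Osbpl8 without mouse 25.

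From the lists, Gabra5, which encodes a GABA-A subunit of extrasynaptic receptors on CA1 dendrites, read 92.8 to 112 CPM in ketamine mice, 206 in mouse 29 and 146 to 206 in awake mice. The groups did not overlap, and the difference was -1.03 ± 0.195 (log2, SE; edgeR adjusted p = 0.0298). Under isoflurane Gabra5 averaged 177 ± 27.4 CPM beside 176 ± 19.7 in awake mice. The calcium-stimulated cyclase gene Adcy8 read 31.3 to 79.9 and 71.6 to 149 CPM in ketamine and awake mice, which overlapped, and fell by 1.75 on the log2 scale. Adcy8 was not called without mouse 28 or without the genotype term, nor Gabra5 without mice 11, 14 and 17. Neither was called without mice 1 to 4 (edgeR adjusted p = 0.0685 and 0.0640).

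Kcnq3 read 1202 to 1414 CPM in ketamine mice and 451 to 878 in isoflurane mice. The test of ketamine against isoflurane gave 0.95 for it (log2, edgeR adjusted p = 0.428). That test called 2 genes, Gm21798 and Naa10, named after their values were seen, and without the number set neither was called. Naa10 was also the 1 gene called higher in ketamine than in awake mice, and as mouse 29 had 0 UMIs of it no fold is given.

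Genotype was compared between labels over all states. Prnp, whose promoter drives the transgenes, checks the label. It ran from 30.8 to 164 CPM in WT and from 68.3 to 439 in fAD mice, which overlapped. Mouse 11 (fAD-GA) at 68.3 and mouse 17 (fAD-Awake) at 79.7 were the lowest by the fAD label, and mouse 14 (WT-Awake) was the highest by the WT label. Between labels edgeR called 0 of 13389 genes and DESeq2 0 of 13380, and 326 had an unadjusted edgeR p under 0.05. Prnp gave 1.04 (log2, edgeR adjusted p = 1.00).

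The isoflurane response was also compared between labels. For the interaction edgeR called 0 of 13372 genes and DESeq2 0 of 13365, and 489 had an unadjusted edgeR p under 0.05. With 5 number sets edgeR called 4 genes, and without the count filter 46. Arc averaged 15.7 and 2.97 CPM in WT-Awake and WT-GA and 18.6 and 2.78 in fAD-Awake and fAD-GA. Homer1 averaged 341 and 168, and 315 and 177. Kcnq3 averaged 1089 and 703, and 975 and 627. These 3 genes were named because they fell in the fit over both labels. A lower mean under isoflurane within each label is therefore no test of a shared response.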

How the data were processed

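Single-nucleus libraries from 20 mouse hippocampi were aligned by the authors with Cell Ranger 5.0.0 (mm10), and the deposited values are whole UMI counts per gene and nucleus, filtered before deposit. Whether CellBender, named in the study's methods, was applied to these counts is not given in the sources used here, and the kit is v3.1 in the labels but v3 in the methods. Library totals were 9243992 to 25394891 UMIs over 32285 genes listed. Nuclei were taken by the marker rule given above with Python 3.11.15 and scanpy 1.11.5. Scrublet scored doublets in each library, the highest scores, at most 6% of a library, were marked, and the 473 marked CA1 nuclei were kept.

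Counts were summed per mouse (CPM is counts scaled to a fixed total) and tested in R 4.3.3 with edgeR 4.0.16 (TMM, filterByExpr, quasi-likelihood, Benjamini-Hochberg, threshold 0.05), with DESeq2 1.42.0 as an alternative. Scripts were tested on simulated counts. The share of CA1 nuclei was compared by an exact permutation test. The labels give each mouse as a separate sample, and p-values measure the spread between these samples. Named genes were for isoflurane the 10 genes per direction with the lowest adjusted p that were called also without the number set, 6 for the other contrasts, all list members called, otherwise up to 4 of a list, and the genes with the highest levels and ratios. Members, lists and tests were chosen with earlier results of these data known. Alternatives changed the number sets, genotype term, tool, count filter, doublets, marker sum (8), nuclei per mouse (148 drawn from each) and mice. Gene positions are from GENCODE M21 and promoters from RefSeq (GRCm38.p6), which held 10007 of 13387 genes. Genes of any gate are left out of the tests between cell types. Some genes that the rules name are not reported here.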

Additional observations from a re-analysis of the deposited data

Results flagged for a closer look

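In 14 of 138 groups of values looked at, 1 mouse lay far from the others of its group. For independent groups chance alone gives about 1 in 20, but several of the 14 came from the same mouse. All were in WT-Awake (n = 6) or fAD-GA (n = 4). The lack of flags in groups of 2 or 3 mice does not show that their mice lay close together. In WT-GA (n = 3) mouse 3 had 1.14% mitochondrial UMIs in CA1 nuclei, beside 0.0602% and 0.149%, and was not flagged. In WT-Awake, mouse 1 had 0.388% mitochondrial UMIs in CA1 nuclei (nearest other mouse 0.0863%), and 26.5 CPM of A830031A19Rik, 297 of Galnt9 and 64.7 of Spred1. Also in WT-Awake, mouse 29 had 6.91 CPM of Fut2 and mouse 12 1544 of Kcnq3. In fAD-GA, mouse 4 had a median of 5238 UMIs per CA1 nucleus (nearest other mouse 2974) and 0.386% mitochondrial UMIs (0.0498%). It also had 94.2 CPM of Osbpl8, 32.1 of Ephb2, 109.8 of Pde4a, 90.1 of Dlg4 and 83.9 of Mpped1, and mouse 11 had 41.8 of Nr4a3.

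The isoflurane response differed between CA1 and another population, by a test of the difference itself in edgeR, for 23 named genes. As CA1 minus DG on the log2 scale the values were 2.01 for Trpc6, 0.68 for Epha5, 1.69 for Gm32014, 0.65 for Kctd16, 0.74 for Arpp21 and 1.72 for Gm21798. In the other direction they were -1.40 for Inf2, -0.86 for Mast3, -0.997 for Gm16599, -0.52 for Kcnq3 and -1.24 for Rhbdl3. As CA1 minus CA3 they were 1.32 for Ptprz1, 1.38 for Ttn, 0.55 for Ppp2r3a, 1.60 for Gli3, 0.54 for Dync1li2 and 1.22 for Sox2ot. Lower in CA1 were Hecw2 at -0.58, Nr4a3 at -1.06, Cttnbp2 at -0.43, Cap2 at -0.44, Mrtfb at -0.49 and Cacng3 at -0.69.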

How the results depend on the processing

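No gene named by the rules for a test changed direction under the alternatives run for it. They were not run for other genes given with a value, such as Nr4a1, Nptx2, Grin1, Gabbr2, Gabrd, Naa10 and, against DG, Bhlhe40. The 884 genes called for isoflurane became 460 without the number set, 315 with 148 nuclei drawn from each mouse and 133 without mice 1 to 4. Leaving out 1 mouse gave 476 to 1067, with 567, 476, 551 and 567 without mice 1, 2, 3 and 4. For ketamine against awake the 15 genes became 911 without the number set, 31 with 5 number sets, 34 with DESeq2, 115 without the count filter and 8 with equal nuclei, and 3 (without mouse 27) to 22 when 1 mouse was left out, 7 without mouse 26. Without mouse 29 no ketamine value was possible. For ketamine against isoflurane the 2 genes became 486 without the number set, 6 with DESeq2, 57 without the count filter, 1 without marked doublets, 1 with equal nuclei, 0 without mice 1 to 4 and 0 without mice 11, 14 and 17, and 0 to 2 when 1 mouse was left out. Genotype gave 23 genes without the count filter and 1 without mice 11, 14 and 17, which is Prnp, the gene whose values chose those mice and so no test of the labels, and 0 to 0 when 1 mouse was left out. The interaction gave 4 with 5 number sets, 46 without the count filter and 0 to 0 when 1 mouse was left out. The 129 genes that differed from DG became 45 without mice 1 to 4 and 40 (without mouse 18) to 144 when 1 mouse was left out, with 63, 45 and 84 without mice 2, 4 and 10. The 35 that differed from CA3 became 81 without the count filter, 4 without mice 1 to 4 and 13 (without mouse 2) to 38, with 18, 18 and 16 without mice 1, 3 and 4, 23, 22, 22 and 16 without mice 10, 11, 15 and 16. The difference in the share of CA1 nuclei ran from 0.00525 to 0.351 percentage points under other settings and from -0.214 to 0.322 when 1 mouse was left out. Fits with fewer mice have fewer samples, and the cause of the other changes was not tested.

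Of the genes that the rules name for isoflurane, 31 were no longer called without mice 1 to 4 and 30 were, 17 and 44 without the number set (a condition on which 20 of the 44 were chosen), and 25 and 33 with equal nuclei. Low counts limit Fos, Egr3, Dusp5 and other genes near 10 CPM or below, and the ketamine contrast is limited by 148 to 373 CA1 nuclei per mouse and by 1 awake mouse in its number set. No paired analysis was possible because each mouse number belongs to 1 group and the labels do not say which mice were processed together. The number set stood in the models as a block, and with 5 such sets, nearer to the processing in fours that the methods describe, isoflurane gave 867 genes, 702 of them among the 884.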

Other observations

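Layer and position markers of CA1 varied between mice, given here in CPM before the scaling for library composition. Calb1, which marks superficial CA1 pyramidal neurons, read 20.8 to 51.7 in awake, 24.4 to 45.3 in isoflurane and 12.2 to 23.7 in ketamine mice, so that ketamine and isoflurane mice did not overlap. After the scaling they did, at 12.9 to 26.9 and 21.9 to 43.3. Ndst4, which marks deep ones, read 244 to 454, 219.8 to 427 and 234 to 312. The 3 dorsal markers Wfs1, Lefty1 and Spink8 summed to 34.3 to 91.8, 43.9 to 111 and 37.6 to 65.0 CPM, and the 4 ventral markers to 34.96 to 109.9, 36.1 to 109 and 14.7 to 102. For Ndst4 and both sums the 3 states overlapped. The 6 CA1 markers outside the rule summed to 374 to 425 in awake, 292 to 389 in isoflurane and 214 to 329 in ketamine mice. There ketamine and awake mice did not overlap, and the part of this in the ketamine results was not tested.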
